A study of Danio rerio with 18 samples.

Results

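The 8 genes described here mark neural progenitors and radial glia in the zebrafish embryo: the pair of fabp7 genes, sox2, sox3, sox19a, gfap, nes and msi1. They were chosen by symbol from the deposited table, ignoring case, and they are 8 of its 25535 genes. The table of gene symbols lists both fabp7 genes as FABP7 and does not say which is fabp7a and which is fabp7b, so they are told apart by their identifiers, ENSDARG00000007697 and ENSDARG00000034650. All 8 genes passed the filter on low values, which asked for at least 1 CPM (read count scaled to the size of the library) in at least 3 libraries.

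Poly(A) RNA was sequenced from pools of 20 to 25 whole zebrafish embryos, in 6 groups of 3 pools that the submitters call biological replicates. The 24 hpf (hours post fertilisation) groups were uninjected wild-type WIK embryos (WIK_24hpf), embryos of the her3 -/- line named her3_38aa (her3_KO_24hpf), wild-type WIK embryos injected with her3-MO, a morpholino against her3, at the 1- to 4-cell stage (her3_MO_24hpf), and WIK embryos injected at that stage with the mismatch morpholino mm-MO (mm_MO_24hpf). At 72 hpf they were uninjected WIK (WIK_72hpf) and the her3 -/- line (her3_KO_72hpf). A morpholino is an antisense oligomer that blocks the use of a transcript, and her3 encodes a bHLH repressor of the Hes family that acts in the early neural plate. The labels name 1 knockout line, so line and genotype cannot be told apart, and in whole-embryo pools fewer cells of a type and less RNA per cell cannot be told apart.

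Neural progenitors line the ventricles of the embryonic brain and the central canal of the spinal cord, divide there, and give rise to neurons and later to glia. Radial glia are progenitors with long processes that span the wall of the neural tube, and in fish they persist as stem cells into adult life. SoxB1 transcription factors (sox2, sox3 and sox19a here) hold cells in the progenitor state, while nes and gfap encode intermediate filaments, fabp7 genes encode brain-type fatty acid binding proteins, and msi1 encodes an RNA-binding protein.

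The libraries held 14214136 to 23135995 reads, with the fewest in replicate 1 of WIK_24hpf. In 4 groups 1 library stood apart from the other 2 in its counts over all genes: replicate 1 of WIK_24hpf, replicate 1 of her3_MO_24hpf, replicate 3 of mm_MO_24hpf and replicate 3 of her3_KO_72hpf. These libraries matter for the 8 genes. Replicate 1 of WIK_24hpf had the highest CPM of its group for 7 of the 8 genes and the lowest for nes, replicate 1 of her3_MO_24hpf the highest for 7, and replicate 3 of mm_MO_24hpf the highest for 6. Each library was also scaled to its plain total instead of the authors' effective library size. On that scale replicate 1 of WIK_24hpf was highest for 3 of the 8 genes and lowest for 4. Replicate 1 of her3_MO_24hpf was still highest for 7, and replicate 3 of mm_MO_24hpf was highest for 3 and lowest for 3. The age of the groups was visible in stage genes: the hatching gland gene ctslb fell by 10.07 on the log2 scale from WIK_24hpf to WIK_72hpf. All 13 stage genes tested changed with age, 8 higher and 5 lower. The digestive gene ela2, unlike the digestive gene prss1, was among the lower, with means of 2.58 CPM in WIK_24hpf and 1.04 CPM in WIK_72hpf. The transcript of her3 itself, listed as HES3 (ENSDARG00000076857), did not fall in the libraries labelled as knockout or her3 morpholino: it averaged 10.03 ± 0.92 CPM (SD, n = 3) in WIK_24hpf, 22.1 ± 0.062 in her3_KO_24hpf, 35.9 ± 5.15 in her3_MO_24hpf and 7.87 ± 0.21 in mm_MO_24hpf. Loss of transcript was therefore no check of these labels.

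**Figure D1:**
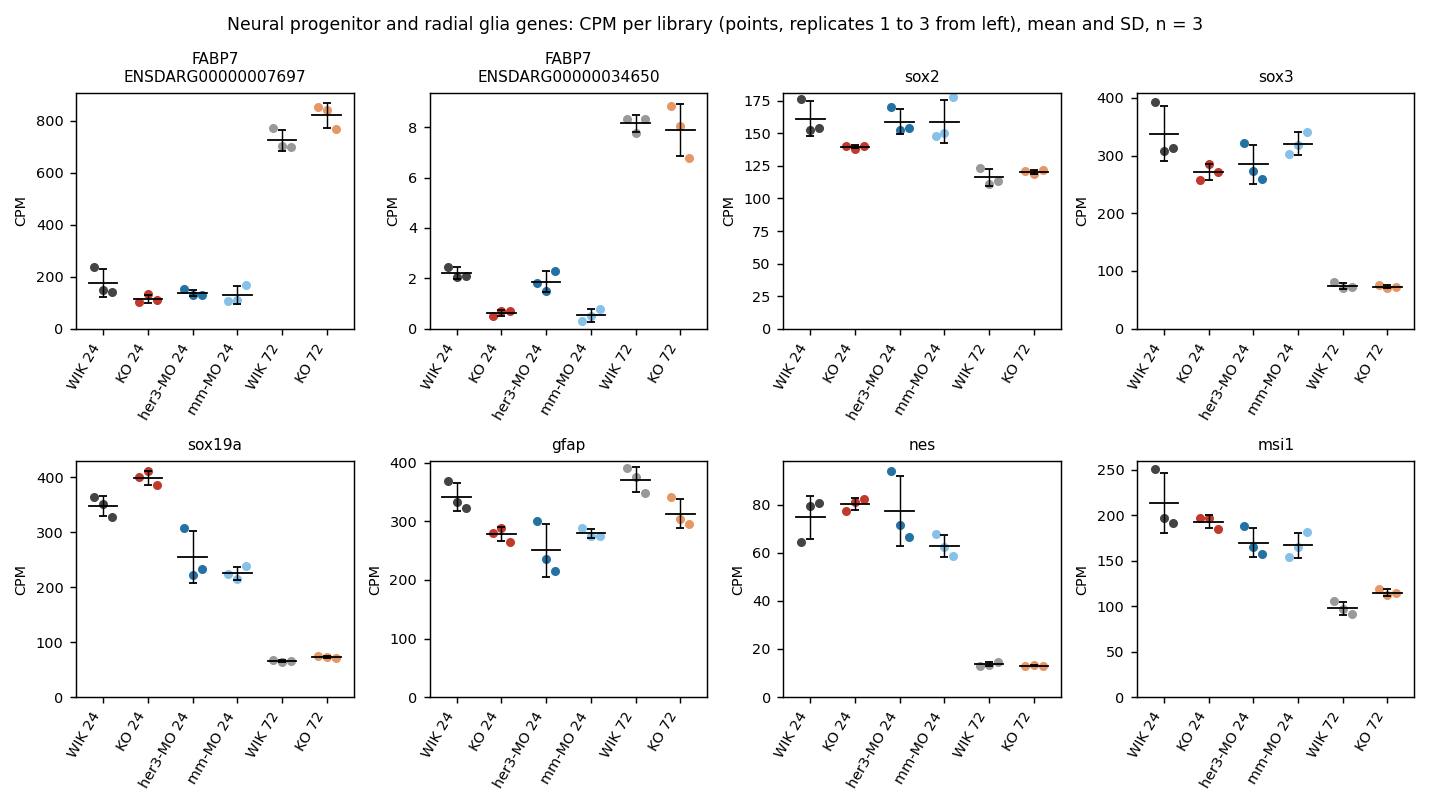
CPM of the 8 genes in each of the 18 libraries, by group (24 and 72 are hpf, KO is the her3 -/- line); points are libraries in replicate order, the line is the mean and the bar the SD of 3, and each vertical axis starts at 0. Both FABP7 genes were several times higher at 72 hpf, sox3, sox19a and nes were several times lower, and at 24 hpf FABP7 ENSDARG00000034650 was under 1 CPM in all 6 libraries of her3_KO_24hpf and mm_MO_24hpf.

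Differences were tested with limma on log2(CPM + 0.5) in 1 fit over all 18 libraries, with Benjamini-Hochberg adjustment over the 20738 genes tested, and a gene is said to have risen or fallen only at an adjusted p under 0.05. Errors are standard errors (SE) for log2 differences and SDs for levels in CPM. The scale understates the change of genes near 0.5 CPM. How often groups of 3 libraries lie apart was not counted over all genes tested, so a lack of overlap is given only as description.

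The knockout line was first compared with WIK at 24 hpf, which asks how progenitor genes differ where her3 is mutated. The 2 fabp7 genes fell and none of the 8 rose. The background is wide: 12.6% of all genes tested were called in this comparison, 6.01% higher and 6.63% lower. The median log2 difference of the 8 genes was -0.25, beside 0.03 over all genes tested.

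The less abundant fabp7 gene moved most. FABP7 ENSDARG00000034650 was at 2.46, 2.06 and 2.10 CPM in WIK_24hpf and at 0.5, 0.696 and 0.700 CPM in her3_KO_24hpf. All 3 knockout libraries lay below all 3 WIK libraries. Mean CPM was 3.49-fold higher in WIK, and the log2 difference was -1.26 ± 0.18 (limma adjusted p = 0.00015). These levels rest on few reads, 29 to 41 per library in WIK_24hpf and 10 to 15 in her3_KO_24hpf. The call held in each of 16 alternative settings, with adjusted p between 0.00012 and 0.011.

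FABP7 ENSDARG00000007697, the abundant fabp7 gene, was at 235, 149 and 140.5 CPM in WIK_24hpf and at 101, 131 and 109 CPM in her3_KO_24hpf. The groups did not overlap, but the highest WIK value was that of the library that stood apart. The log2 difference was -0.59 ± 0.18 (limma adjusted p = 0.044). Without replicate 1 of WIK_24hpf it was -0.35 with an adjusted p of 0.18, without replicate 1 or 3 of her3_KO_24hpf the adjusted p was 0.17 or 0.12, and with only these 2 groups in the fit it was 0.20. In the fit without all 4 libraries that stood apart it passed, at -0.35 with a limma adjusted p of 0.0082. Of these 4 only replicate 1 of WIK_24hpf is in this comparison, so the difference is the -0.35 found without it alone. The others enter only through the spread that all groups share, and 18.8% of all genes tested were then called. In every call given without the 4 libraries, those outside the compared groups change the adjusted p but not the difference.

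Of the SoxB1 factors, sox3 was at 393, 308 and 314 CPM in WIK_24hpf and at 257, 286 and 271 CPM in her3_KO_24hpf. No knockout library reached the lowest WIK value, yet the difference of -0.31 ± 0.10 missed the threshold (limma adjusted p = 0.053). For sox2, long used to define neural stem cells, the values were 177, 153 and 154 CPM against 141, 138 and 140.1 CPM, a log2 difference of -0.20 ± 0.08 (limma adjusted p = 0.10). The third factor, sox19a, a SoxB1 gene of fish, leaned the other way: 365, 351 and 328 CPM in WIK_24hpf and 400.5, 411 and 386 CPM in her3_KO_24hpf, with a log2 difference of 0.20 ± 0.10 (limma adjusted p = 0.18). The groups did not overlap for any of the 3 factors. When the 4 libraries that stood apart were left out, sox3 and sox19a passed the threshold in these directions, at adjusted p of 0.038 and 0.0031, and sox2 did not. For sox19a this was the only call, 1 of 16 alternative settings. When single libraries were left out, its limma adjusted p ran from 0.18 to 0.33. The sox3 call was also made with plain library totals (adjusted p = 0.032). It was made as well without replicate 2 or 3 of WIK_24hpf (adjusted p = 0.038 and 0.040). These fits all kept the WIK library that stood apart, at 393 CPM on the deposited scale. With plain library totals its sox3 value was 325, beside 298 and 314 in replicates 2 and 3 of WIK_24hpf. Without the 4 libraries the sox3 difference shrank to -0.196. When single libraries were left out, the sox3 difference ran from -0.372 to -0.196, with limma adjusted p from 0.038 to 0.2.

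The filament gene gfap, a marker of radial glia and later of astroglia, was at 369, 332 and 322 CPM in WIK_24hpf and at 280.4, 288 and 265 CPM in her3_KO_24hpf, again without overlap, and the log2 difference was -0.29 ± 0.10 (limma adjusted p = 0.074). It passed without the 4 libraries, with an adjusted p of 0.016. When single libraries were left out, the limma adjusted p of gfap ran from 0.06 to 0.21. The other filament gene, nes, was at 64.4, 79.3 and 80.6 CPM against 77.5, 81.0 and 82.5 CPM, and msi1 at 251, 197 and 192 CPM against 197, 197 and 185 CPM. Their groups overlapped, and their log2 differences of 0.11 ± 0.11 and -0.14 ± 0.10 did not pass (limma adjusted p = 0.55 and 0.39).

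**Figure D2:**
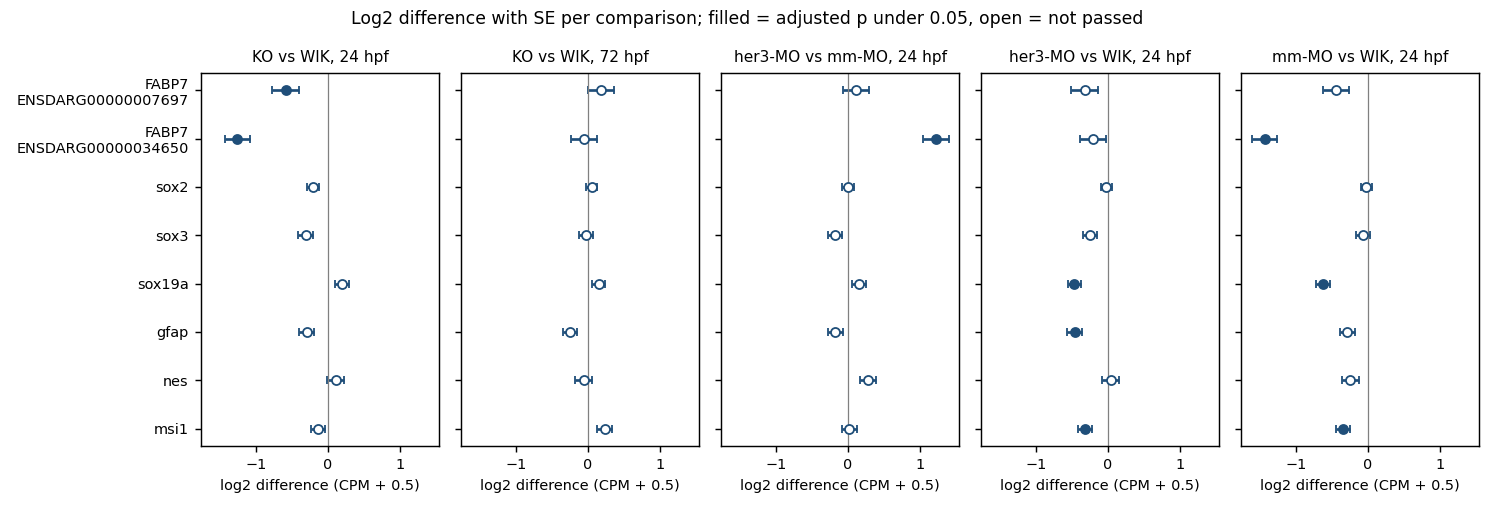
Log2 difference on the log2(CPM + 0.5) scale (horizontal axis, bars are SE) of each of the 8 genes in 5 comparisons (KO is the her3 -/- line); filled points have a limma adjusted p under 0.05. FABP7 ENSDARG00000034650 lies at -1.26 in the knockout comparison and at -1.43 for mm-MO against WIK, and at 1.23 for her3-MO against mm-MO.

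Related genes at 24 hpf gave a mixed account in the knockout line. Of 6 further SoxB genes tested, SOX1 (ENSDARG00000008131) fell by 0.42 ± 0.11 (adjusted p = 0.021) and the other 5 did not pass. Of 39 further progenitor and radial glia genes 2 rose and 2 fell. NOTCH1 (ENSDARG00000052094), a receptor of the pathway that holds back neuronal differentiation, rose by 1.38 ± 0.28 on the log2 scale, and SOX5 rose by 0.47 ± 0.13. ID3, an inhibitor of bHLH factors, fell by 0.40 ± 0.10, and her15.1, a Notch target, fell by 0.32 ± 0.10. None of 19 proliferation genes passed, and of 27 neuronal genes 1 rose and 2 fell, among them nefmb, a neurofilament gene, which fell by 1.03 ± 0.10. Among 9 retinal progenitor genes rx2 fell by 0.53 ± 0.12 and the other 8 did not pass, and among 7 other fatty acid binding protein genes fabp4b fell by 1.35 ± 0.20 and fabp10b by 0.69 ± 0.18. Leaving out the 4 libraries gave 2 higher and 6 lower of the 39 progenitor genes and 3 higher and 5 lower of the neuronal genes, where 18.8% of all genes tested were called. With the 2 compared groups alone, where 4.37% were called, no SoxB or further progenitor gene passed and 2 neuronal genes fell. Without replicate 1 of WIK_24hpf, or without replicate 3 of her3_KO_24hpf, 1 of the 39 progenitor genes rose, none fell and SOX1 did not pass.

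The same comparison at 72 hpf called none of the 8 genes with limma in the fit over all 18 libraries. In that fit gfap and msi1 had an unadjusted p under 0.05. With only the 2 groups of 72 hpf in the fit both passed, at limma adjusted p of 0.043 and 0.038. In that setting 17.0% of all genes tested were called. With plain library totals msi1 passed as well (limma adjusted p = 0.017). Both also passed without the 4 libraries, as given below. The background in the fit over all 18 libraries was 10.8% of genes tested, 5.11% higher and 5.71% lower. The median log2 difference of the 8 genes was 0.01, beside -0.01 over all genes tested. FABP7 ENSDARG00000034650 was at 8.34, 7.76 and 8.33 CPM in WIK_72hpf and at 8.85, 8.04 and 6.77 CPM in her3_KO_72hpf, groups that overlapped (log2 difference -0.05 ± 0.18, adjusted p = 0.92). FABP7 ENSDARG00000007697 was at 771, 703 and 700.3 CPM and at 855, 843 and 767 CPM (0.18 ± 0.18, adjusted p = 0.63).

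For 3 genes the ranges at 72 hpf did not overlap, a count for which no share over all genes was computed. The gene gfap was at 390.4, 376 and 347 CPM in WIK_72hpf and at 342, 303 and 295 CPM in the knockout line (-0.25 ± 0.10, limma adjusted p = 0.16). The values of msi1 were 105, 97.1 and 91.2 CPM against 119, 112 and 114 CPM (0.23 ± 0.10, limma adjusted p = 0.16), and those of sox19a 66.8, 64.6 and 66.5 CPM against 75.5, 72.4 and 72.1 CPM (0.15 ± 0.10, limma adjusted p = 0.38). These 3 genes passed without the 4 libraries, at adjusted p of 0.030 for gfap, 0.0097 for msi1 and 0.025 for sox19a. In that fit 22.4% of all genes tested were called. Of the 4 only replicate 3 of her3_KO_72hpf is in this comparison, and the others enter only through the shared spread. When single libraries were left out, none of the 3 genes passed. The lowest limma adjusted p was then 0.12 for gfap, 0.14 for msi1 and 0.46 for sox19a. The remaining sox2, sox3 and nes had log2 differences of 0.05, -0.03 and -0.06 and adjusted p between 0.77 and 0.93.

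Other genes of the progenitor lists moved at 72 hpf. SOX21 (ENSDARG00000008540), a SoxB2 factor that counteracts SoxB1 activity, rose by 0.43 ± 0.09 and SOX14, of the same subgroup, by 0.42 ± 0.13, which made 2 of 6 further SoxB genes. Of the 39 further progenitor and radial glia genes 6 rose and 1 fell, with NOTCH1 (ENSDARG00000052094) up by 1.00 ± 0.28, SOX8 (ENSDARG00000105301) up by 0.89 ± 0.18, PTPRZ1 (ENSDARG00000051814) up by 0.37 ± 0.11 and SOX9 (ENSDARG00000043923) lower, at -0.62 ± 0.08. Of 19 proliferation genes 3 rose and none fell, and of 27 neuronal genes 3 rose and none fell. Of 13 stage genes 1 rose and 3 fell, with the pancreatic protease gene prss1 at -1.84 ± 0.25 and he1.1 at -1.36 ± 0.27. These 2 genes change with age in opposite directions. From WIK_24hpf to WIK_72hpf mean prss1 went from 0.626 to 14.3 CPM and mean he1.1 from 2641 to 15.2 CPM. Of the other stage genes, only he1.2, CRX (ENSDARG00000043483) and GNAT2 had ranges at 72 hpf that did not overlap. Their means were 6.16, 51.5 and 431 CPM in WIK_72hpf and 2.52, 82.1 and 312 CPM in her3_KO_72hpf. In WIK he1.2 fell with age, while CRX and GNAT2 rose. The he1.1, he1.2 and CRX differences thus had the direction of the change with age, and those of prss1 and GNAT2 the opposite one. The part of a difference in stage in the 72 hpf values was not tested. With the 4 libraries left out, 14 rose and 2 fell of the 39 progenitor genes and 12 rose and 1 fell of the 19 proliferation genes, where 22.4% of all genes tested were called. Of the 6 further SoxB genes 4 then rose, as with the compared groups alone, where 17.0% of all genes were called. Only 1 of these 6 rose when any single library was left out, and 1 with a pseudocount of 0.1. Leaving out 1 library at a time, 2 to 5 of the progenitor genes rose and 1 fell. Of the proliferation genes 0 to 4 rose, with 0 without replicate 3 of WIK_72hpf or replicate 1 of her3_KO_72hpf.

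Whether the knockout difference itself changed with age was tested as an interaction. It passed for 1 of the 8 genes, FABP7 ENSDARG00000034650, whose log2 difference between knockout and WIK was higher at 72 hpf than at 24 hpf by 1.21 ± 0.25 (limma adjusted p = 0.0099, between 0.0040 and 0.034 over 22 alternative settings). The background was 4.64% of genes tested, 2.50% higher and 2.15% lower. In this gene mean CPM rose from 24 to 72 hpf 3.69-fold in WIK and 12.5-fold in the knockout line, from 2.21 ± 0.22 to 8.15 ± 0.34 CPM and from 0.632 ± 0.11 to 7.89 ± 1.05 CPM (SD, n = 3). FABP7 ENSDARG00000007697 had an interaction of 0.77 ± 0.26, which did not pass (limma adjusted p = 0.10), and it passed without the 4 libraries at an adjusted p of 0.0063 and with plain library totals at 0.035. The other 6 genes had interactions between -0.17 and 0.37 and adjusted p of 0.15 or more; with plain library totals msi1 passed as well, at 0.34 with an adjusted p of 0.048.

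The change from 24 to 72 hpf was then followed in WIK. A total of 7 of the 8 passed, 2 higher and 5 lower, where 74.5% of all genes tested were called, 38.6% higher and 36.0% lower. That share is near the background and says little of these genes as a set, but the sizes differ widely among them.

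Largest were the falls of nes, sox19a and sox3. The nes values fell from 64.4, 79.3 and 80.6 CPM to 12.9, 13.4 and 14.8 CPM, a log2 difference of -2.40 ± 0.11 (limma adjusted p = 8.3e-12). Those of sox19a fell from between 328 and 365 CPM to between 64.6 and 66.8 CPM, a log2 difference of -2.39 ± 0.10, and those of sox3 from between 308 and 393 CPM to between 69.9 and 79.9 CPM, a log2 difference of -2.18 ± 0.10. The fall of msi1 was smaller, at -1.11 ± 0.10 on the log2 scale, from a mean of 214 ± 32.9 to 97.8 ± 7.02 CPM. That of sox2 was the smallest of the 5, at -0.47 ± 0.08, from 161 ± 13.5 to 116 ± 6.32 CPM (limma adjusted p = 4.7e-05). The SoxB1 factors thus parted: mean sox2 was 1.39-fold higher at 24 than at 72 hpf, mean sox3 4.58-fold and mean sox19a 5.28-fold.

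Both fabp7 genes rose with age, by 2.09 ± 0.18 for FABP7 ENSDARG00000007697 and 1.68 ± 0.18 for FABP7 ENSDARG00000034650 on the log2 scale (limma adjusted p = 1.9e-08 and 1.9e-07). The remaining gene, gfap, was at 369, 332 and 322 CPM at 24 hpf and at 390.4, 376 and 347 CPM at 72 hpf; these ranges overlapped and the difference of 0.12 ± 0.10 did not pass (limma adjusted p = 0.29). It passed with plain library totals, at 0.29 with an adjusted p of 0.012, and without the 4 libraries, at 0.18 with an adjusted p of 0.017.

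The lists of other cell states show what changed around them in WIK. All 19 proliferation genes tested fell, with a median log2 difference of -1.98. Of 27 neuronal genes 24 rose and 2 fell, led by SNAP25 (ENSDARG00000058117), a synaptic vesicle fusion gene, at 5.21 ± 0.11. Of 21 glial and glutamate-handling genes 14 rose and 7 fell, with the matrix gene bcan at 5.42 ± 0.15 and the glutamate transporter gene SLC1A2 (ENSDARG00000102453) at 4.68 ± 0.14. The 39 further progenitor and radial glia genes went both ways, with 18 higher and 14 lower, and of 11 oligodendrocyte lineage genes 7 rose and 3 fell.

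**Figure D3:**
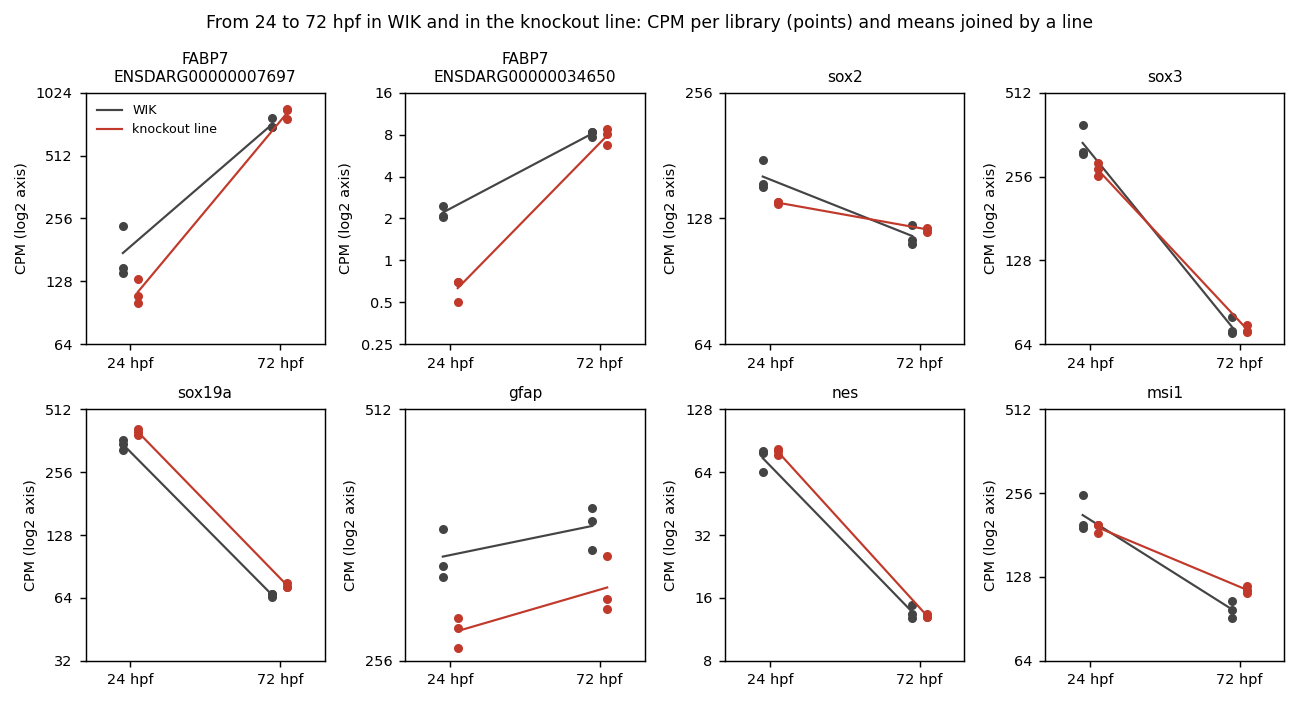
CPM of the 8 genes at 24 and 72 hpf in WIK (grey) and in the her3 -/- line (red), on log2 axes whose range differs between panels; points are libraries and lines join the means of 3. The FABP7 ENSDARG00000034650 lines start apart, at means of 2.21 and 0.632 CPM, and meet at 8.15 and 7.89 CPM.

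The her3 morpholino was compared with the mismatch morpholino, its injection control. A single gene of the 8 passed, where 3.35% of genes tested were called, 1.45% higher and 1.90% lower. FABP7 ENSDARG00000034650 was at 1.82, 1.48 and 2.29 CPM in her3_MO_24hpf and at 0.285, 0.5 and 0.773 CPM in mm_MO_24hpf, on 36 to 52 and 7 to 15 reads per library. The groups did not overlap, mean CPM was 3.59-fold higher with her3-MO, and the log2 difference was 1.23 ± 0.18 (limma adjusted p = 0.00068). With only these 2 groups in the fit the adjusted p was 0.058. The direction is opposite to that of the knockout line against WIK.

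The other 7 genes overlapped between the 2 morpholino groups on the deposited scale. Their log2 differences ran from -0.18 for sox3 to 0.28 ± 0.11 for nes, which was at 94.0, 71.6 and 66.4 CPM with her3-MO and at 67.8, 62.3 and 58.7 CPM with mm-MO (limma adjusted p = 0.24). The abundant fabp7 gene, FABP7 ENSDARG00000007697, was at 151, 128 and 130.1 CPM and at 106, 111 and 168 CPM (0.11 ± 0.18, limma adjusted p = 0.83). With plain library totals the groups did not overlap for sox19a. It was then at 323, 239.2 and 243.6 with her3-MO and at 238.4, 223.03 and 223.04 with mm-MO. The sox19a difference passed in 0 of 16 alternative settings. Leaving out the 4 libraries, sox3 and gfap passed as lower with her3-MO, at -0.22 and -0.32 with adjusted p of 0.040 and 0.0056. Each of these genes passed in only this 1 of 16 alternative settings. Among the lists, the retinal progenitor gene rx2 rose by 0.72 ± 0.12 as 1 of 9 in its list, VIM (ENSDARG00000044501), a filament gene of radial glia, was lower at -0.59 ± 0.15, and none of 6 SoxB, 19 proliferation or 27 neuronal genes passed with limma; without the 4 libraries 4 of the proliferation genes rose and 4 of the neuronal genes fell, where 12.9% of all genes tested were called. Of 11 oligodendrocyte lineage genes 2 fell and none rose, where 1.90% of all genes tested were called lower. With plain library totals 1 of the 11 fell, and 0 to 1 when single libraries were left out. None of 21 glial genes passed. With the 2 morpholino groups alone no gene of these lists passed, where 0.878% of all genes were called.

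The difference between the knockout effect and the morpholino effect was tested after these values had been seen. It passed for 1 of the 8 genes, FABP7 ENSDARG00000034650, at -2.49 ± 0.25 on the log2 scale (limma adjusted p = 8.5e-06, between 3.7e-06 and 0.00046 over 22 alternative settings). The background was 7.66% of genes tested, 3.86% higher and 3.80% lower. FABP7 ENSDARG00000007697 was at -0.70 ± 0.26 (limma adjusted p = 0.12, with 0.020 without replicate 3 of mm_MO_24hpf, 0.030 with plain library totals and 0.0036 without the 4 libraries) and the other 6 genes were between -0.21 and 0.04.

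Both injected groups were also compared with uninjected WIK. These 2 comparisons and the knockout comparison share the 3 WIK_24hpf libraries, so each gene's values are set side by side without counting agreement between them. In mm_MO_24hpf 3 of the 8 genes fell and none rose, where 10.5% of genes tested were called, 4.99% higher and 5.48% lower. In her3_MO_24hpf 3 fell and none rose, where 14.5% were called, 6.71% higher and 7.74% lower. The median log2 difference of the 8 genes was -0.32 with mm-MO and -0.28 with her3-MO, beside 0.03 and 0.01 over all genes tested.

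The SoxB1 gene sox19a fell in both. Its values were 365, 351 and 328 CPM in WIK_24hpf, 309, 223 and 233 CPM in her3_MO_24hpf and 224, 215 and 238 CPM in mm_MO_24hpf. On the deposited scale every injected library lay below every uninjected one. With plain library totals replicate 1 of her3_MO_24hpf, at 323, lay above replicate 1 of WIK_24hpf, at 303. The log2 difference was -0.46 ± 0.10 for her3-MO (limma adjusted p = 0.0063) and -0.62 ± 0.10 for mm-MO (limma adjusted p = 0.00055). When WIK and her3-MO alone were fitted, the adjusted p was 0.22.

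The RNA-binding protein gene msi1 fell in both as well, from 251, 197 and 192 CPM in WIK_24hpf to 188, 165 and 158 CPM with her3-MO (-0.32 ± 0.10, limma adjusted p = 0.042) and to 154, 165 and 182 CPM with mm-MO (-0.35 ± 0.10, limma adjusted p = 0.036). All injected values lay below the WIK values on the deposited scale. With plain library totals replicate 1 of her3_MO_24hpf, at 196.6, lay above replicate 2 of WIK_24hpf, at 191.4. Without replicate 1 of WIK_24hpf the differences were -0.20 and -0.22, with adjusted p of 0.18 and 0.13, and leaving out replicate 2 or 3 of her3_MO_24hpf or replicate 1 or 2 of mm_MO_24hpf also ended the calls, at adjusted p between 0.11 and 0.14. With plain library totals the her3-MO value was -0.14 (adjusted p = 0.14), and with the 2 groups of each comparison alone the adjusted p was 0.29 and 0.31.

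The radial glia gene gfap fell with her3-MO, from 369, 332 and 322 CPM to 301, 235 and 215 CPM (-0.46 ± 0.10, limma adjusted p = 0.011), and with mm-MO it was at 288, 275 and 275 CPM (-0.29 ± 0.10, limma adjusted p = 0.088). On the deposited scale no injected library reached the lowest WIK value. With plain library totals replicate 1 of her3_MO_24hpf, at 315, and replicate 1 of mm_MO_24hpf, at 307, lay above replicate 1 of WIK_24hpf, at 305. The her3-MO call was lost with plain library totals (adjusted p = 0.055) and without replicate 2 or 3 of her3_MO_24hpf (adjusted p = 0.052 and 0.053), and it was 0.22 with these 2 groups alone.

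For FABP7 ENSDARG00000034650 the injections parted. With mm-MO it fell from 2.46, 2.06 and 2.10 CPM to 0.285, 0.5 and 0.773 CPM (-1.43 ± 0.18, limma adjusted p = 7.7e-05), so that mean CPM was 4.25-fold higher in WIK. With her3-MO, at 1.82, 1.48 and 2.29 CPM, it overlapped WIK (-0.21 ± 0.18, limma adjusted p = 0.42). The order of the 24 hpf means was WIK, her3-MO, knockout and mm-MO. WIK and her3-MO overlapped, as did knockout and mm-MO, while every library of the first pair lay above every library of the second. With only WIK and mm-MO in the fit the adjusted p was 0.052.

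Neither sox2 nor sox3 nor nes nor FABP7 ENSDARG00000007697 passed in either injected group against WIK. Their log2 differences were -0.02, -0.24, 0.04 and -0.32 with her3-MO and -0.02, -0.07, -0.24 and -0.44 with mm-MO. Leaving out replicate 1 of her3_MO_24hpf gave a call for sox3 with her3-MO (-0.34, adjusted p = 0.036), and leaving out replicate 3 of mm_MO_24hpf one for FABP7 ENSDARG00000007697 with mm-MO (-0.65, adjusted p = 0.023). With all 4 libraries that stood apart left out, sox3 passed with her3-MO (-0.22, adjusted p = 0.028), and nes and FABP7 ENSDARG00000007697 passed with mm-MO (-0.30 and -0.41, adjusted p = 0.012 and 0.0068). Of 6 further SoxB genes 3 fell in each injected group: sox21a by 1.00 ± 0.16 with her3-MO and 0.91 ± 0.16 with mm-MO, SOX21 (ENSDARG00000008540) by 0.57 ± 0.09 and 0.65 ± 0.09, and sox19b, the maternal SoxB1 gene of fish, by 0.33 ± 0.10 and 0.37 ± 0.10. Of the 39 further progenitor and radial glia genes 1 rose and 10 fell with her3-MO, and 3 rose and 8 fell with mm-MO. These counts depend on the scaling and the libraries: with plain library totals 4 rose and 3 fell with her3-MO, and 4 rose and 6 fell with mm-MO. Without the 4 libraries, where 20.1% and 16.4% of all genes tested were called, they were 0 and 14, and 3 and 10. With the compared groups alone, where 0.338% and 0.743% were called, none of the 39 passed. Leaving out replicate 2 of her3_MO_24hpf left 2 lower with her3-MO, replicate 3 left 3, and replicate 1 of WIK_24hpf left 5. The Notch target her4.1, expressed in radial glia, fell by 0.77 ± 0.16 and 0.74 ± 0.16. Of the 19 proliferation genes 1 rose and 4 fell with her3-MO, and none rose and 5 fell with mm-MO. The her3-MO direction turned with plain library totals, where 5 proliferation genes rose and none fell, and with mm-MO 3 then fell. On that scale 18.6% of all genes tested were called with her3-MO, and 80.3% of these calls were higher. With mm-MO 12.8% were called, and 71.2% of these calls were higher. With the compared groups alone none passed, and without replicate 1 of WIK_24hpf or replicate 2 or 3 of her3_MO_24hpf 1 rose and none fell with her3-MO. The remaining lists gave small counts in the 24 hpf comparisons. Of 21 glial genes 1 fell in the knockout line, 3 fell with her3-MO, and 2 rose and 1 fell with mm-MO, each against WIK. Of 11 oligodendrocyte lineage genes 1 rose in the knockout line, 3 fell with her3-MO and 2 fell with mm-MO against WIK; with plain library totals 1 rose and none fell with her3-MO, and none passed with mm-MO. Of 9 retinal progenitor genes none passed with her3-MO against WIK and 2 fell with mm-MO, rx2 at -0.59 and rx1 at -0.27. With the compared groups alone no gene of the glial, oligodendrocyte or retinal lists passed in these 3 comparisons with WIK. Of the 7 other fatty acid binding protein genes 1 fell with her3-MO and 2 with mm-MO.

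Ratios of reads within a library do not depend on how libraries are scaled. A total of 6 such ratios was computed after the values had been seen, so they are given without a test, and since transcript length enters a ratio it is compared only between libraries. Per 100 reads of FABP7 ENSDARG00000007697, FABP7 ENSDARG00000034650 had 1.05, 1.38 and 1.49 reads in WIK_24hpf, 0.495, 0.530 and 0.642 in her3_KO_24hpf, 1.21, 1.15 and 1.76 in her3_MO_24hpf and 0.269, 0.451 and 0.460 in mm_MO_24hpf. The knockout and mm-MO libraries lay below all WIK and her3-MO libraries. At 72 hpf the ratio was 1.08, 1.1 and 1.19 in WIK and 1.04, 0.953 and 0.883 in the knockout line.

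The ratio of sox19a to sox2 reads separated the knockout line from WIK and from the injected groups. It was 2.07, 2.30 and 2.12 in WIK_24hpf and 2.85, 2.97 and 2.75 in her3_KO_24hpf. With her3-MO it was 1.81, 1.46 and 1.51 and with mm-MO 1.51, 1.43 and 1.34. The knockout libraries were all above WIK and the injected libraries all below it, while the 2 injected groups overlapped. By 72 hpf it had dropped to between 0.541 and 0.584 in WIK and between 0.592 and 0.625 in the knockout line.

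The ratio of sox19a to sox3 reads was 0.930, 1.14 and 1.04 in WIK_24hpf and 1.56, 1.44 and 1.42 in her3_KO_24hpf. With her3-MO it was 0.957, 0.818 and 0.899 and with mm-MO 0.740, 0.674 and 0.699. The knockout libraries lay above WIK and the mm-MO libraries below it, while her3-MO overlapped WIK. At 72 hpf it was between 0.836 and 0.930 in WIK and between 1.00 and 1.03 in the knockout line.

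The ratio of sox3 to sox2 reads was 2.22, 2.02 and 2.03 in WIK_24hpf and 1.83, 2.07 and 1.94 in her3_KO_24hpf, which overlapped. With her3-MO it was 1.89, 1.79 and 1.68, below every WIK library and below every mm-MO library, at 2.04, 2.12 and 1.92. At 72 hpf the knockout libraries, between 0.587 and 0.622, lay below the WIK libraries, between 0.627 and 0.648. The ratio of sox2 to nes reads was 2.75, 1.92 and 1.92 in WIK_24hpf, between 1.70 and 1.81 in her3_KO_24hpf, between 1.81 and 2.32 in her3_MO_24hpf and between 2.19 and 3.03 in mm_MO_24hpf. The knockout libraries lay below the WIK and mm-MO libraries. At 72 hpf this ratio overlapped, between 7.69 and 9.58 in WIK and between 8.91 and 9.37 in the knockout line. The ratio of gfap to nes reads was 5.73, 4.19 and 4.00 in WIK_24hpf, between 3.21 and 3.62 in her3_KO_24hpf, between 3.20 and 3.29 in her3_MO_24hpf and between 4.25 and 4.68 in mm_MO_24hpf. It was lower with her3-MO than with mm-MO in every library.

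**Figure D4:**
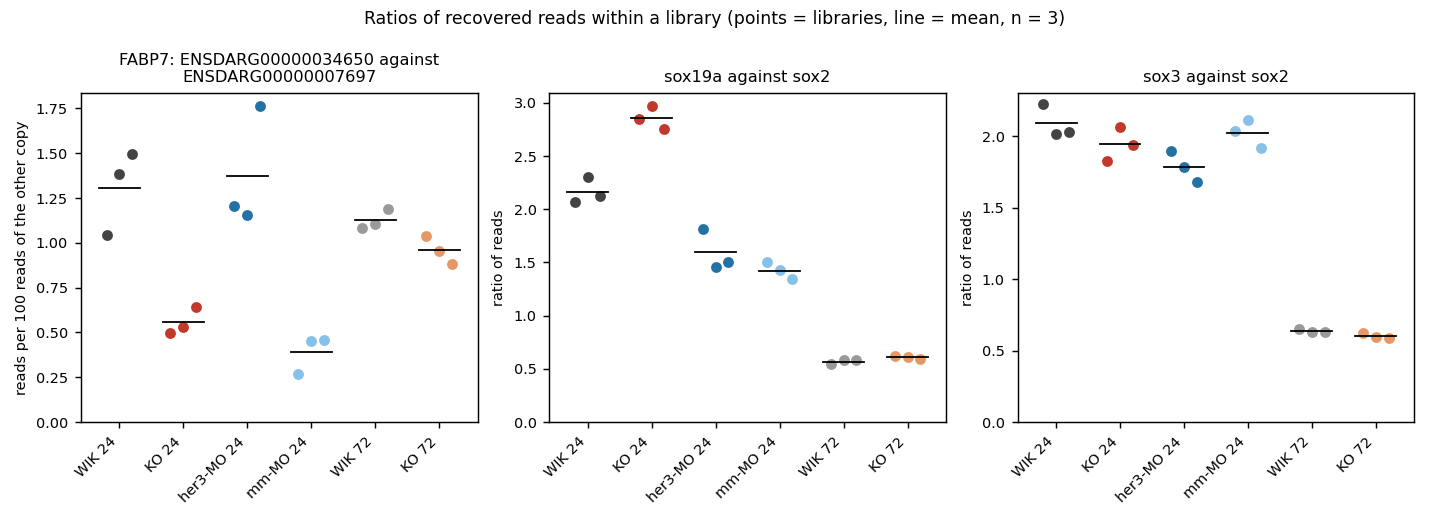
Ratios of recovered reads within each library (vertical axes start at 0), by group (KO is the her3 -/- line); points are libraries and lines means of 3. Left, FABP7 ENSDARG00000034650 per 100 reads of FABP7 ENSDARG00000007697, between 0.269 and 0.642 in the knockout and mm-MO libraries at 24 hpf and at 1.05 or more in the WIK and her3-MO libraries; middle, sox19a against sox2, between 2.75 and 2.97 in the knockout line at 24 hpf; right, sox3 against sox2.

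How the genes varied together was described over the 18 libraries after the mean of each age had been taken off, which leaves group and library differences mixed. The libraries share groups, scaling and the 4 that stood apart, so the correlations carry no test. Over the 28 pairs the median Pearson r was 0.36. FABP7 ENSDARG00000007697 and sox2 had r = 0.81, sox2 and sox3 0.77, and FABP7 ENSDARG00000007697 and sox3 0.76. Without the 4 libraries these were 0.57, 0.48 and 0.30 over 14 libraries, and the median over the pairs was 0.15. The pair of fabp7 genes had 0.66 with all libraries and 0.77 without the 4. For sox19a and msi1 the values were 0.73 and 0.83, and for sox19a and nes 0.57 and 0.81, while sox19a and sox2 ran opposite at -0.24 and -0.51.

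Among the 13522 genes with a mean of at least 5 CPM, the 2 most like each of the 8 by this measure were named. For FABP7 ENSDARG00000034650 they were rx2, a retinal homeobox gene, at r = 0.91 and grinab at 0.89. For FABP7 ENSDARG00000007697 they were hmgb1b, a chromatin protein gene, at 0.98 and CENPP at 0.95. For sox2 they were mab21l2 and UBA3, both at 0.89, and for sox3 MAB21L1 (ENSDARG00000102047) at 0.93 and UBE2A at 0.92. For sox19a they were CDCA7 at 0.96 and CYGB (ENSDARG00000099371) at 0.95, for gfap MSRB3 and MYL11, both at 0.95, for nes NR2C2 at 0.88 and GRM2 at 0.86, and for msi1 tle2a at 0.96 and HES6 (ENSDARG00000019335), a bHLH gene, at 0.95. Without the 4 libraries these values lay between 0.71 and 0.97, with mab21l2 the lowest.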

How the data were processed

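The authors deposited 1 table of CPM values for 25535 genes in 18 libraries. Per the submitters' processing notes, the tools were edgeR 3.34.0, featureCounts 2.0.2, HISAT2 2.2.1 and SAMtools 1.10, and the build danRer11. How strand and reads with several hits were handled is not given in the sources, so reads of similar copies, such as the fabp7 pair, may be split or lost. Library sums of CPM ran from 912145 to 1206849 rather than to 1 constant, as a scaling by effective size gives. The lowest sum was that of replicate 3 of her3_KO_72hpf and the highest that of replicate 1 of WIK_24hpf. Both are among the 4 libraries that stood apart. Within a tolerance of 0.01 reads, 100.0% of values were whole multiples of 1 read, which gave the read numbers; 3 reads equal 0.122 to 0.255 CPM.

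From the deposited CPM, log2(CPM + 0.5) was fitted with limma 3.58.1 in R 4.3.3 (trend and robust moderation, 1 coefficient per group, 12 residual degrees of freedom) for 20738 genes, 4797 being removed by the filter of 1 CPM in 3 libraries. The fit was tested on simulated counts in which all genes and libraries had the same relative spread beyond counting error. No simulated library stood apart, so that test does not cover the 4 libraries that did. The spread behind each p-value is that between embryo pools. The 8 genes, the lists and the rules for naming genes (all 8, and of each list up to 4 called genes with the largest difference per comparison) were chosen with earlier results of these data known. The retinal progenitor genes named, rx2 and rx1, fall outside that rule and were picked after their values were seen. Some other listed genes are not reported here, and counts over retinal progenitor genes cover the 9 reported. Of 153 list symbols 10 had no match in the table. Deviations of same-numbered libraries from their group means correlated at r between -0.58 and 0.38, with 13 of 45 pairs above 0.1. Replicates were not paired in the main fit, and a replicate block was run as an alternative. Pseudocounts, filters, scalings, voom weights, the groups in the fit and left-out libraries were varied.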

Additional observations from a re-analysis of the deposited data

Results flagged for a closer look

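Differences between effects passed the limma test for the genes below, and no explanation is offered. Among the 8 genes, FABP7 ENSDARG00000034650 passed for the knockout effect at 72 hpf against that at 24 hpf, at 1.21 on the log2 scale, and for the knockout effect against the morpholino effect at 24 hpf, at -2.49, a comparison added after the values were seen.

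Of the listed genes reported here, the knockout effect was higher at 72 than at 24 hpf for fabp4b (1.52), nefmb (1.2), EBF2 (0.70), EBF3 (0.68), PTPRZ1 (0.60), PAX6 (ENSDARG00000045936, 0.59), ID3 (0.58) and SOX21 (0.46). It was lower at 72 hpf for prss1 (-1.68) and SOX9 (-0.54). Over all genes tested 4.64% were called in this comparison. Of the 39 further progenitor and radial glia genes 3 were higher and 1 lower. When single libraries were left out, 0 to 4 of these 39 genes were higher and 1 lower. In the same fits 0 to 1 of the 6 further SoxB genes and 3 to 4 of the 27 neuronal genes were higher. The knockout effect differed from the morpholino effect at 24 hpf for fabp4b (-1.80), rx2 (-1.25), nefmb (-1.04) and nkx2.2b (1.04). Over all genes tested 7.66% were called there. With 3 libraries in each group, single libraries were not tested as outliers.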

How the results depend on the processing

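The 64 log2 differences of the 8 genes were recomputed under every alternative, giving 1120 values. None reversed where either value passed the test, 34 changed sign where neither did, 21 lost the call and 30 gained it. Pseudocounts of 0.1 and 1, no filter, a filter of 5 CPM, median-of-ratios scaling and voom weights on recovered reads changed no call. The planned edgeR and DESeq2 fits were not run.

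The number of the 8 genes called was, in the order knockout at 24 hpf, knockout at 72 hpf, her3-MO against mm-MO, her3-MO against WIK, mm-MO against WIK, WIK age, knockout by age and knockout against morpholino, 2, 0, 1, 3, 3, 7, 1 and 1. Over all genes tested the shares called were, in the same order, 12.6%, 10.8%, 3.35%, 14.5%, 10.5%, 74.5%, 4.64% and 7.66%. With only the compared groups the number of the 8 genes was 1, 2, 0, 0, 1, 7, 1 and 1. The shares over all genes were then 4.37%, 17.0%, 0.878%, 0.338%, 0.743%, 67.8%, 4.55% and 4.73%. With plain library totals the number of the 8 genes was 3, 1, 1, 1, 3, 8, 3 and 2. Of the 20738 genes tested 2496, 2377, 762, 3867, 2661, 15130, 981 and 1590 were then called. In the main fit these numbers were 2620, 2245, 694, 2997, 2171, 15455, 963 and 1589. Without the 4 libraries that stood apart, which leaves 2 libraries in each affected group, the number of the 8 genes was 5, 3, 3, 4, 6, 8, 2 and 2. Calls rose over all genes as well, with shares of 18.8%, 22.4%, 12.9%, 20.1%, 16.4%, 79.6%, 10.8% and 18.1%. Leaving out 1 library at a time gave 1 to 3, 0 to 0, 1 to 1, 1 to 4, 2 to 4, 7 to 7, 1 to 1 and 1 to 2. With a replicate block the number of the 8 genes was 2, 0, 1, 3, 4, 7, 1 and 1. Over all genes tested 2410, 2078, 611, 2820, 2013, 15352, 836 and 1412 were then called. With the block FABP7 ENSDARG00000007697 lost its call in the knockout at 24 hpf (adjusted p = 0.061) and gfap gained one (0.027). Same-numbered libraries shared only a number, however, with 13 of 45 pairs correlated above 0.1.

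Over all genes, plain totals shifted the median log2 difference to 0.17 for her3-MO and 0.13 for mm-MO against WIK and to 0.17 for WIK age, and the share of calls that were higher rose from 46.4% to 80.3%, from 47.6% to 71.2% and, for her3-MO against mm-MO, from 43.4% to 53.7%. With only the compared groups the calls went from 2620 to 906 for the knockout at 24 hpf, from 2245 to 3528 at 72 hpf, from 694 to 182 for her3-MO against mm-MO, from 2997 to 70 for her3-MO and from 2171 to 154 for mm-MO against WIK, and from 1589 to 981 for knockout against morpholino. Without the 4 libraries they were 4645 for the knockout at 72 hpf, 2678 for her3-MO against mm-MO, 3399 for mm-MO against WIK, 2237 for knockout by age (963 with all) and 3759 for knockout against morpholino. Leaving out 1 library moved the share of all genes called to between 7.34% and 16.4% for the knockout at 24 hpf, 6.84% and 8.02% at 72 hpf, 1.58% and 3.94% for her3-MO against mm-MO, 4.93% (without her3_MO_24hpf replicate 2) and 25.3% (without WIK_24hpf replicate 3) for her3-MO and 5.05% and 14.2% for mm-MO against WIK, 70.5% and 75.6% for WIK age, 2.70% and 5.92% for knockout by age, and 5.43% and 9.01% for knockout against morpholino. The causes were not tested. FABP7 ENSDARG00000034650 rests on 7 to 52 reads per library at 24 hpf, which limits its precision.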
